A study of Mus musculus with 15 samples.

Results

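Medullary and cortical thymic epithelial cells (mTEC and cTEC) were compared within the thymus. The series holds 15 libraries of sorted mouse epithelium, and the 6 thymic ones were used here, 3 of mTEC and 3 of cTEC, chosen by their sample titles. Both groups came from untreated male C57BL/6J mice aged 8 weeks with no transgene named in the labels, and differed only in the cell type taken in the sort. Each library was a pool of sorted cells from 5 mice, so n = 3 pools per group and a standard deviation (SD) is the spread between pools. The kit was KAPA RNA Stranded PolyA for all 6 libraries. The other libraries, from skin, colon and lung, entered only as an alternative estimate of the spread. The series was made to look into why MHC class I levels differ among epithelia. How cortex and medulla differ across the genome is a comparison that its design also allows.

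The thymus has 2 epithelial compartments with different tasks. In the cortex, cTEC draw in lymphoid progenitors, start T cell development through Notch ligands, and carry out positive selection with peptides cut by their own proteasome and lysosomal proteases. In the medulla, mTEC take in the positively selected cells through chemokines and show them peptides of tissues from all over the body. AIRE, a chromatin-bound regulator, allows much of that ectopic transcription. Part of the medulla also consists of cells that resemble tuft, microfold, ciliated, secretory or keratinized epithelium. Mature mTEC are renewed steadily and depend on the receptor RANK (Tnfrsf11a) and on NF-kB.

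The libraries held 14329113 to 18538657 reads assigned to genes on the sense strand, 17.5 to 19.3 times the reads on the opposite strand. Levels are given in CPM, counts per 1e+06 gene reads after TMM scaling, and serve to compare one gene between libraries, not different genes. The 10 most abundant genes took 6.08% to 8.30% of gene reads. Across the genes tested, log2 CPM correlated at 0.959 to 0.981 among cTEC pools, 0.975 to 0.982 among mTEC pools and 0.860 to 0.936 between the groups, where genes are not independent replicates. No 2 pools were alike within sampling noise, with a chi-square per degree of freedom of 20.5 to 58.9 between pools of a group.

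The labels were first set against the markers. Psmb11 (ENSMUSG00000072423.4, chr14:54621433-54629556, plus strand), the cortical catalytic subunit of the thymoproteasome, stood at 249, 236 and 729 CPM in cTEC and 16.8, 17.2 and 33.6 CPM in mTEC, in the order of replicates 1 to 3 used throughout. Prss16, the thymus-specific serine protease of cortical lysosomes, read 1992, 1606 and 6001 CPM in cTEC and 152, 131 and 183 CPM in mTEC. Both genes were higher in every cTEC pool than in any mTEC pool, and cTEC replicate 3 stood far above the other cortical pools in each. The log2 fold change of mTEC over cTEC, given with its standard error, was -4.16 ± 0.50 for Psmb11 (adjusted p = 0.000451) and -4.36 ± 0.51 for Prss16 (adjusted p = 0.000385). Without cTEC replicate 3 these became -3.49 and -3.59. A positive log2 fold change means a higher level in mTEC, and adjusted p values cover all genes tested.

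The 300 bases around the Psmb11 start site are shown because this gene marks the cortex. FOXN1, the master factor of thymic epithelium, is known to recognise GACGC, whose matches on either strand are in capitals. The window is 250 bases upstream and 50 downstream at chr14:54625060-54625359 of GRCm38.p6, plus strand, from RefSeq.
Psmb11: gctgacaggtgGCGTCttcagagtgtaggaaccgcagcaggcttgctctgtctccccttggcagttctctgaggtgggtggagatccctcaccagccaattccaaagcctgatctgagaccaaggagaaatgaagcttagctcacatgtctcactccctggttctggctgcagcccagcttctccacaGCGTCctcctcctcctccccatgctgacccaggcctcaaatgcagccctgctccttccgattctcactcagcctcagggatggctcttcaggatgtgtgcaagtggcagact
Of 27025 mouse genes with such a window, 29.6% held GACGC on either strand, and among tested genes 46.3% did. Among the cortical marker genes called and with a window, 5 of 11 (45.5%) held it. The mRNA of Foxn1 itself was 180.1, 209 and 311 CPM in cTEC and 144, 119 and 179 CPM in mTEC, a lower range in mTEC with no overlap. Its difference missed the threshold without the replicate block (log2 fold change -0.66 ± 0.23, adjusted p = 0.0527) and passed it with the block (adjusted p = 0.00448).

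On the medullary side, Aire (ENSMUSG00000000731.15, chr10:78030022-78043610, minus strand) measured 46.5, 32.2 and 82.4 CPM in cTEC and 717, 282 and 696 CPM in mTEC (log2 fold change 3.39 ± 0.44, adjusted p = 0.000635). Its level in mTEC replicate 2 was less than in the other medullary pools yet above every cortical pool. Tnfrsf11a, the receptor for RANK ligand (ENSMUSG00000026321.7, chr1:105780718-105847981, plus strand), was even across pools, at 28, 21.3 and 21.2 CPM in cTEC and 177, 142 and 158 CPM in mTEC (log2 fold change 2.76 ± 0.17, adjusted p = 1.95e-05). Of 16 medullary markers, 14 were higher in mTEC, among them Fezf2 (log2 fold change 2.33), a transcription factor that drives tissue antigens beside AIRE. Without cTEC replicate 3 the count was 9. Trp63, a factor of basal and progenitor epithelium listed with the medulla, went the other way, at 478, 401 and 478 CPM in cTEC and 218, 249 and 280.0 CPM in mTEC (log2 fold change -0.86 ± 0.17, adjusted p = 0.00431). Of 15 cortical markers, 12 were higher in cTEC and none in mTEC. Psmb11, Prss16, Aire and Tnfrsf11a thus followed the labels in every pool, although Aire at 32.2 CPM or more in cTEC and Psmb11 at 16.8 CPM or more in mTEC show that neither marker was at 0 in the other group. In bulk samples, fewer cells of a type and less RNA per cell cannot be told apart.

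**Figure D1:**
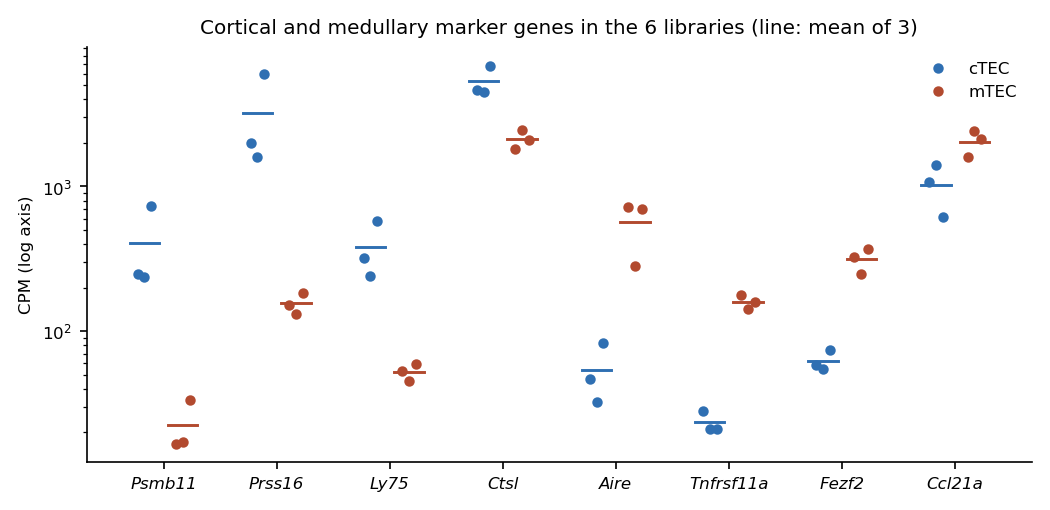
Levels of 8 marker genes in each pool, in CPM on a log axis, with 1 point a pool and a line at the mean of 3. Psmb11 and Prss16 are higher in every cTEC pool, Aire and Tnfrsf11a in every mTEC pool.

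Across 17231 genes tested, 5659 (32.8%) differed at an adjusted p under 0.05. Of all genes tested, 18.3% (3159) were higher in mTEC and 14.5% (2500) higher in cTEC, and the median log2 fold change was -0.003. These 2 shares are the background for each group of genes described here. Differences towards the medulla were larger: the median size of a called log2 fold change was 1.98 for genes higher in mTEC and 0.90 for genes higher in cTEC. A change of more than 2-fold was shown for 1672 genes (9.7%), 1255 of them higher in mTEC and 417 in cTEC. Genes near 0 in cTEC could pass the filter through their mTEC pools alone, and more genes had reads in mTEC. The sizes and the counts past 2-fold therefore lean to mTEC in part by construction. With the replicate number as a block, 7091 genes (41.2%) were called, 3924 higher in mTEC and 3167 in cTEC. Without mTEC replicate 1 the calls fell to 3497 (1913 in mTEC and 1584 in cTEC) and those past 2-fold to 823. Leaving out mTEC replicate 3 left 836 past 2-fold, and leaving out cTEC replicate 2 left 1611 higher in cTEC.

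**Figure D2:**
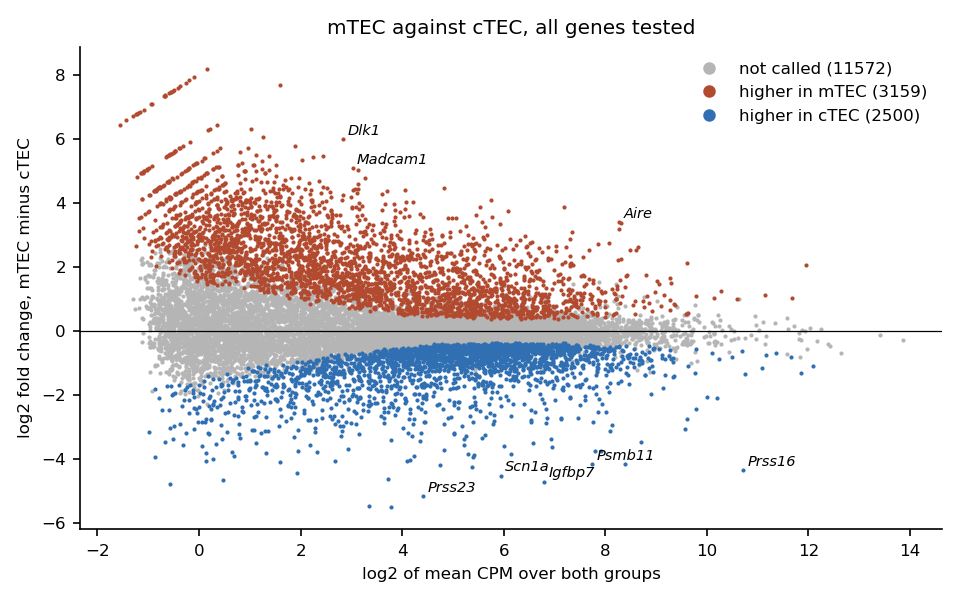
Log2 fold change of mTEC over cTEC against the log2 of mean CPM for the 17231 genes tested, with called genes coloured by direction. Points above 0 are higher in mTEC and reach further from 0 than those below, with median sizes of 1.98 and 0.90 among called genes. The filter let in genes near 0 in cTEC, so these sizes lean to mTEC in part by construction.

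The 15 largest differences towards the medulla, by the rule for named genes, were between 4.32 and 6.01 on the log2 scale. Crp, the acute-phase C-reactive protein of liver, was 2.98, 2.38 and 1.93 CPM in cTEC and 51.3, 56.6 and 55.1 CPM in mTEC (log2 fold change 4.47 ± 0.20, adjusted p = 9.8e-06), with pools of a group close to each other. Dlk1, a non-canonical Notch ligand of endocrine and progenitor cells, was 0.338, 0.273 and 0 CPM in cTEC and 16.6, 8.25 and 17.3 CPM in mTEC, and its log2 fold change of 6.01 moved between 5.42 without cTEC replicate 3 and 6.64 without cTEC replicate 1. Sstr3, a somatostatin receptor, was 0.227 ± 0.141 CPM in cTEC and 10.6 ± 3.51 CPM in mTEC (log2 fold change 5.47 ± 0.51, adjusted p = 0.00013). Cdh22, a cadherin of brain, was 0.671 ± 0.160 CPM in cTEC and 18.5 ± 5.80 CPM in mTEC (log2 fold change 4.78 ± 0.35, adjusted p = 4.47e-05). Lrrc15 and Pgc, the gastric protease precursor pepsinogen C, differed by 4.34 and 4.40 on the log2 scale. Among the other largest were Pdyn, which encodes opioid peptides (5.03), Madcam1, a homing ligand of mucosal vessels (5.09), the intestinal antimicrobial Ang4 (4.61), Muc5ac, the gel-forming mucin of stomach and airway (4.40), and Fabp6, the ileal bile acid binding protein (4.32). The rest were Cr2, a complement receptor of B cells (4.52), the calcium-binding protein Calb2 (4.49), the peptide hormone Adm2 (4.44) and the keratin of palms and soles Krt9 (4.44). Their cortical levels rest on few reads. Without cTEC replicate 1 these values became 8.68 for Pdyn, 5.85 for Madcam1, 5.49 for Ang4, 6.22 for Muc5ac, 6.59 for Cr2, 8.06 for Calb2, 5.70 for Krt9 and 5.90 for Fabp6. The last moved the other way, to 3.70, without cTEC replicate 3, as did Pdyn (4.43) and Madcam1 (4.48), and Muc5ac was at 3.69 without mTEC replicate 1. Without cTEC replicate 3, Cr2 was at 3.92 and Adm2 at 3.82. Adm2 was at 5.30 without cTEC replicate 2, and Krt9 at 3.81 without mTEC replicate 1. B cell markers are given with the other cell types, and their part in the Cr2 value was not tested.

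Towards the cortex the 15 largest differences were between -5.16 and -3.86, Psmb11 and Prss16 among them. The serine protease Prss23 was 53.3, 32.0 and 39.5 CPM in cTEC and 1.35, 1.04 and 1.08 CPM in mTEC (log2 fold change -5.16 ± 0.27, adjusted p = 1.18e-05). Igfbp7, a secreted IGF-binding protein, was 183, 212 and 248 CPM in cTEC and 7.99, 8.05 and 8.38 CPM in mTEC (log2 fold change -4.72 ± 0.17, adjusted p = 4.62e-06). In both genes all 3 mTEC pools were far under the lowest cTEC pool. Scn1a, a sodium channel subunit best known from neurons, was 115, 107 and 133 CPM in cTEC and 4.53, 6.82 and 4.11 CPM in mTEC (log2 fold change -4.53 ± 0.22, adjusted p = 1.18e-05). Serpinf1, which encodes the anti-angiogenic factor PEDF, was 4.10 ± 0.556 CPM in mTEC and 78.7 ± 11.5 CPM in cTEC (log2 fold change -4.25). The methyltransferase Inmt (-4.19, at -3.08 without cTEC replicate 3) and Snhg11 (-4.17) came next. The neurotrophin Ntf3 (-4.09), the glucose transporter Slc2a12 (-4.08), the copper pump Atp7b (-3.90) and the kinase Prkcq (-3.87) followed. The exchange factor Rapgef3 (-3.86), the microtubule crosslinker Mtcl1 (-3.95) and the ciliary gene Cys1 (-4.03) were of like size. Prkcq is also a signalling kinase of T cells. Thymocyte markers were higher in cTEC too, with a summed level of 330, 241 and 269 CPM in cTEC and 194, 104 and 157 CPM in mTEC, and their part in the Prkcq value was not tested.

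More genes had reads in mTEC. After every library was thinned to the smallest total, at least 1 read was found for 24406, 22577 and 19697 genes in cTEC and for 27826, 25595 and 26382 genes in mTEC. Every mTEC pool exceeded every cTEC pool, by 4374.3 genes on average (22227 ± 2370 and 26601 ± 1130, SD, n = 3), the exact two-sided permutation p being 0.1, the smallest that 3 against 3 unpaired pools can give. This test did not use the replicate pairing, under which the smallest possible p is larger. The difference was 1825 genes at a minimum of 5 reads and 1602 at 10 reads, again with no overlap. cTEC replicate 3 had the fewest genes with 1 read or more. Protein-coding genes with a read numbered 17227, 16449 and 15373 in cTEC and 18773, 18073 and 18382 in mTEC, of 21764 listed. For lincRNAs, the numbers with a read were 1288, 1014 and 704 in cTEC and 1926, 1466 and 1649 in mTEC, and for processed pseudogenes 1677, 1548 and 1098 in cTEC and 1966, 1724 and 1803 in mTEC. At 10 reads or more the groups overlapped in both classes, with 330, 305 and 365 lincRNAs in cTEC and 444, 324 and 373 in mTEC, and 171, 227 and 251 processed pseudogenes in cTEC and 190, 177 and 177 in mTEC. Protein-coding genes at 10 reads numbered 14264, 13696 and 13952 in cTEC and 16139, 14895 and 15611 in mTEC, with no overlap.

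A gene counts here as found with at least 10 reads, not thinned, over the 3 pools of a group. By that measure 79.4% of 21764 protein-coding genes were found in mTEC and 71.6% in cTEC. Of 255 families of at least 10 genes that share a symbol stem, 148 had more members found in mTEC, 100 as many and 7 more in cTEC. The families named next were chosen after their values were seen. Of 1134 olfactory receptor genes (Olfr), 35 in mTEC and 9 in cTEC were found, and with 1 read or more 356 in mTEC and 88 in cTEC. Among 21 Lce genes of the cornified envelope, the numbers were 18 in mTEC and 2 in cTEC. All 13 pregnancy-specific glycoprotein genes (Psg) were found in mTEC against 2 in cTEC. Of 42 beta-defensins (Defb), antimicrobial peptides of skin, gut and epididymis, 16 in mTEC and 4 in cTEC reached the minimum. For lipocalins (Lcn) the counts were 9 in mTEC and 2 in cTEC of 10, for the alpha-antitrypsin cluster of liver (Serpina) 20 in mTEC and 11 in cTEC of 24, and for cytochrome P450 genes (Cyp) 67 in mTEC and 43 in cTEC of 100. Solute carriers (Slc), many of them broadly used, gave 349 in mTEC and 294 in cTEC of 371. Other families of restricted genes did not differ so at 10 reads. Of 295 vomeronasal receptor genes (Vmn) 2 were found in each group, and of 14 Esp genes 0 in mTEC and 1 in cTEC. With 1 read or more, though, Vmn had 41 in mTEC and 11 in cTEC, and Esp 4 in mTEC and 1 in cTEC. Reads that fit several near-identical members are lost from these counts, so the values of single members of Psg, Lce, Klk and Serpina are uncertain.

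Lists of genes that mark peripheral cell types differed in how far they parted the compartments. Most members of the liver and gut list were medullary, 12 of 19 tested, with 1 cortical, Lgals4, and a median log2 fold change of 1.77. With the replicate block 16 were medullary. Cdx1, an intestinal identity factor, was 20.7, 15.7 and 25.8 CPM in cTEC and 117, 58.6 and 126 CPM in mTEC (log2 fold change 2.28 ± 0.30, adjusted p = 0.000669). The groups did not overlap. Hnf4a, a factor of liver and gut, was low in both groups (0.835 ± 0.226 CPM in cTEC and 2.88 ± 1.31 CPM in mTEC), and its call was lost without cTEC replicate 3, mTEC replicate 1 or mTEC replicate 3. In the pancreatic list 8 of 12 tested genes were higher in mTEC, 10 with the block, and none in cTEC, with a median of 2.70. A further 9 members were too low to be tested. Rare genes could pass the filter through their mTEC pools alone, where they were higher. Shares and medians of this and the other lists of tissue genes therefore lean to mTEC by construction. Gcg, the glucagon gene, was 1.01, 0.681 and 0.413 CPM in cTEC and 9.99, 3.90 and 5.86 CPM in mTEC (log2 fold change 3.20 ± 0.50, adjusted p = 0.00163). The acinar protease precursor Ctrb1 was 2.14, 2.66 and 1.31 CPM in cTEC and 16.1, 5.39 and 10.2 CPM in mTEC (log2 fold change 2.37 ± 0.45, adjusted p = 0.00384).

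Muscle genes were called higher in mTEC for 11 of 17 and lower for none (median 2.27), and 7 calls were left without mTEC replicate 1. Des, the intermediate filament of muscle, was 11.5, 13.6 and 6.06 CPM in cTEC and 59.5, 87.2 and 59.0 CPM in mTEC (log2 fold change 2.72 ± 0.29, adjusted p = 0.000266). Ttn, the sarcomere spring titin, was 6.19, 3.75 and 3.85 CPM in cTEC and 65.7, 22.6 and 38.4 CPM in mTEC (log2 fold change 3.19 ± 0.39, adjusted p = 0.000491). The lowest medullary pool of each was above the highest cortical pool. Des is also made by pericytes, and pericyte genes are given with the other cell types. Neuroendocrine and secretory genes gave 11 higher in mTEC of 20 (median 2.06, 14 with the block and 7 without mTEC replicate 1). Ret, the receptor kinase of GDNF ligands, was 1.41, 1.02 and 1.10 CPM in cTEC and 23.3, 19.8 and 26.1 CPM in mTEC (log2 fold change 4.28 ± 0.25, adjusted p = 1.82e-05). Syt1, the calcium sensor of vesicle release, was 28.6, 13.9 and 30.1 CPM in cTEC and 192, 106 and 149 CPM in mTEC (log2 fold change 2.62 ± 0.31, adjusted p = 0.000434). Insm1, a neuroendocrine factor, was 14.9 ± 7.32 CPM in cTEC and 84.6 ± 24.3 CPM in mTEC (log2 fold change 2.5) and was picked here after its value was seen. Cpe, a prohormone-processing peptidase, was the 1 member higher in cTEC, at 31.5, 26.5 and 18.4 CPM in cTEC and 6.47, 3.31 and 4.42 CPM in mTEC (log2 fold change -2.43 ± 0.30, adjusted p = 0.000486).

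Microfold genes, named for the antigen-sampling cells over gut lymphoid tissue, were higher in mTEC for 8 of 11 (median 1.71, 5 without mTEC replicate 1). Spib, their lineage factor, was 83.3, 49.5 and 50.2 CPM in cTEC and 338, 275 and 436 CPM in mTEC (log2 fold change 2.52 ± 0.26, adjusted p = 0.000202). Keratinized epithelium genes gave 12 of 22 higher in mTEC, 19 with the replicate block or without a filter and 6 without mTEC replicate 1. Dsg1a, a desmosomal cadherin of the upper epidermis, was 12.7, 7.09 and 5.44 CPM in cTEC and 120.4, 90.7 and 92.6 CPM in mTEC (log2 fold change 3.58 ± 0.30, adjusted p = 6.94e-05). Grhl3, a barrier factor, was 5.35, 4.36 and 2.34 CPM in cTEC and 21.5, 18.4 and 16.7 CPM in mTEC (log2 fold change 2.22 ± 0.30, adjusted p = 0.000811). Ionocyte genes were called for 7 of 11, a count of 3 without mTEC replicate 1 and 4 without mTEC replicate 3, with all 15 libraries in 1 fit or with expected counts. Their factor Foxi1 was 0.422 ± 0.397 CPM in cTEC and 5.33 ± 3.17 CPM in mTEC (log2 fold change 3.60 ± 0.83, adjusted p = 0.00965), a log2 fold change that was 4.46 without cTEC replicate 1 and 2.99 without cTEC replicate 3, and its call was lost with all 15 libraries in 1 fit.

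Of 18 tuft genes 2 were called higher in mTEC, Pou2f3 and Dclk1, with a median of 0.78. The count moved with single libraries and settings: it was 12 without cTEC replicate 1, 0 without mTEC replicate 3, 6 with the block, 10 without a filter and 5 with DESeq2, and 1 without cTEC replicate 2, cTEC replicate 3 or mTEC replicate 1 and with all 15 libraries. Pou2f3, the tuft master factor, was 31.5, 20.3 and 15.9 CPM in cTEC and 43.0, 36.1 and 42.2 CPM in mTEC (log2 fold change 0.84 ± 0.24, adjusted p = 0.0232), a call lost when any of cTEC replicates 2 and 3 or mTEC replicates 1 and 3 was left out. Dclk1 lost its call without mTEC replicate 3. Ciliated genes were divided, with Dnah11 and Mcidas of 22 higher in mTEC and 4 higher in cTEC, Trp73, Hydin, Ccno and Ccdc39 (median 0.13). Without cTEC replicate 1 the counts were 5 in mTEC and 3 in cTEC, and with all 15 libraries 0 and 4. The medullary count was 1 without any other library except mTEC replicate 2, where it was 3, and 1 at 1 CPM or after thinning. Mcidas lost its call in 5 of the 6 fits that leave out a library, and Ccdc39 in 3. Trp73, a factor of multiciliated cells, was 31.0, 26.5 and 25.7 CPM in cTEC and 8.46, 7.86 and 10.6 CPM in mTEC (log2 fold change -1.62 ± 0.19, adjusted p = 0.000361), so that every cortical pool exceeded the medullary ones. Ccno, which serves centriole amplification, was 53.0, 105 and 53.7 CPM in cTEC and 25.6, 32.9 and 26.3 CPM in mTEC (log2 fold change -1.32 ± 0.27, adjusted p = 0.00539). Foxj1, the master regulator of motile cilia, was 31.7, 16.4 and 16.4 CPM in cTEC and 38.7, 22.7 and 41.6 CPM in mTEC, with overlap (log2 fold change 0.67 ± 0.31, adjusted p = 0.123).

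**Figure D3:**
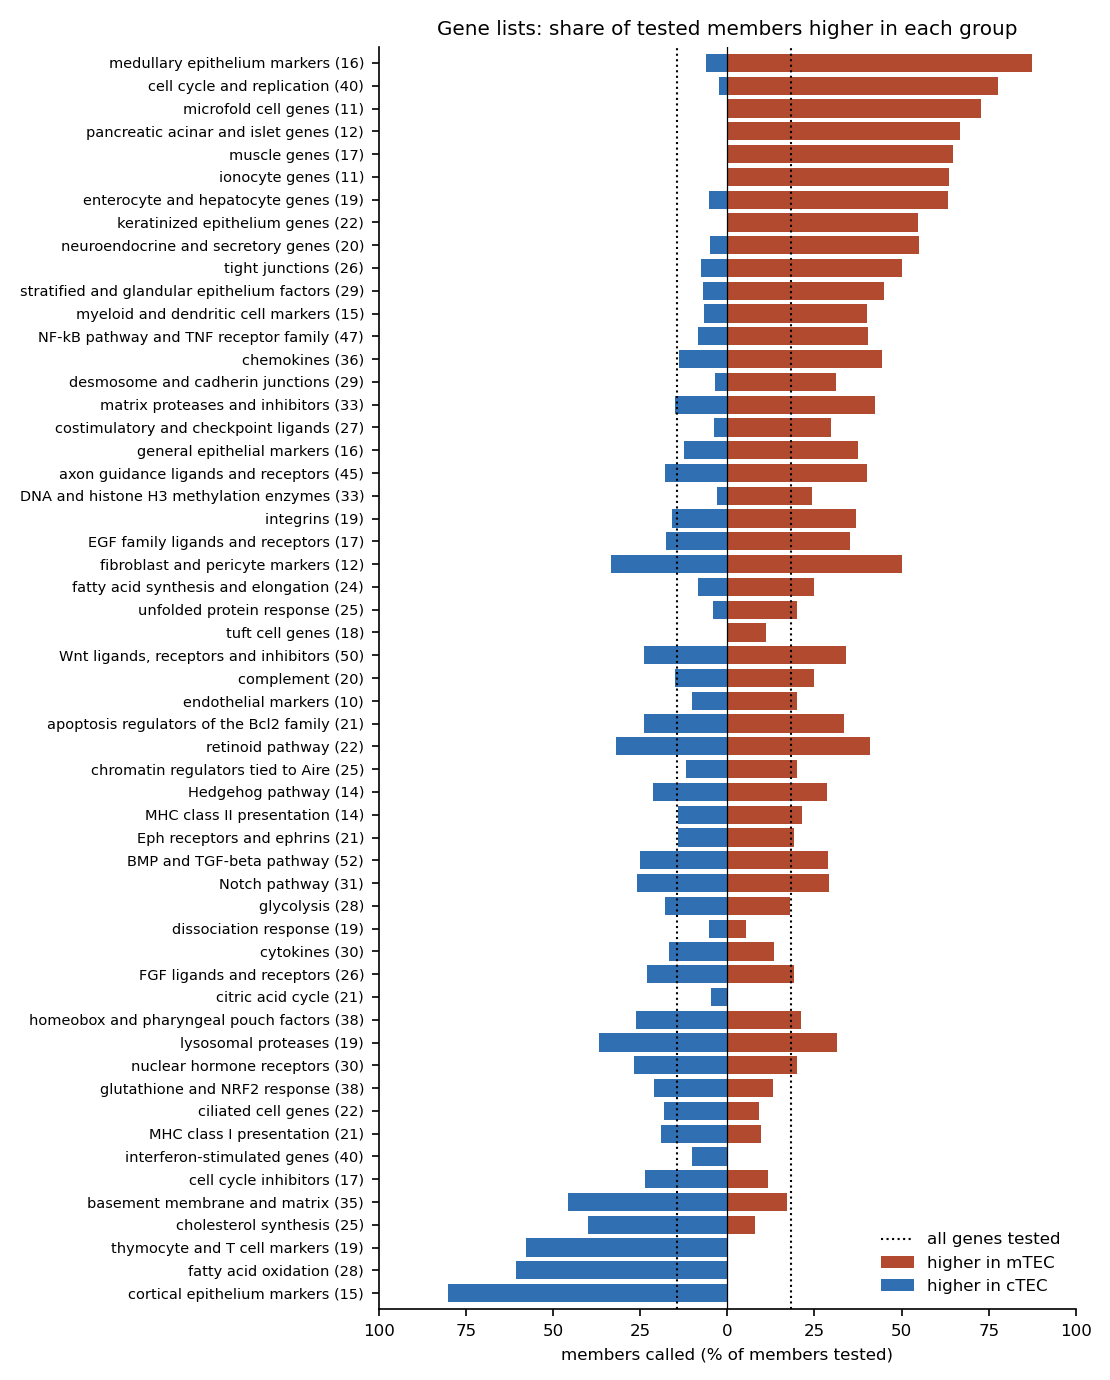
Share of tested members called higher in mTEC (right) and higher in cTEC (left) for each gene list with at least 10 genes tested, in percent of members tested (number in brackets), with dotted lines at the 18.3% and 14.5% of all genes. Pancreatic, muscle and microfold lists and the cell cycle lie to the right, tuft (2 of 18) and ciliated genes (2 of 22) stay short of the right line, and fatty acid oxidation, cholesterol synthesis, matrix and thymocyte genes lie to the left.

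Families sharing a symbol stem were then counted without regard to pathway, over the 186 stems with at least 10 protein-coding genes tested. The stems were ranked by the share of members called. The largest shares towards mTEC were in Pou, with 8 of 10, and Klk, with 17 of 24. The first stem pools POU homeodomain factors with Pou2af1, a B cell coactivator that is no POU protein. Klk genes encode kallikrein proteases of skin and glands. The limit from the filter, given with the pancreatic list, holds for stems of rare genes such as Klk too. Klk4 was 1.91, 0.681 and 1.31 CPM in cTEC and 18.5, 8.83 and 20.4 CPM in mTEC (log2 fold change 3.59 ± 0.44, adjusted p = 0.000519). The Klk count fell to 11 without cTEC replicate 2, 8 without mTEC replicate 1 and 8 without mTEC replicate 3.

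Ion channel genes were 2 of the leading stems. Of 13 sodium channel genes (Scn) 9 were higher in mTEC, and 2 were higher in cTEC, Scn1a among them. Scn3b, a regulatory subunit, was 7.32, 4.16 and 3.51 CPM in cTEC and 53.2, 52.9 and 68.0 CPM in mTEC (log2 fold change 3.53 ± 0.27, adjusted p = 5.47e-05). Scn1a, described above, was thus opposite in direction to most of its family. Of 13 calcium channel genes (Cacna) 8 were higher in mTEC and none in cTEC. Cacna1b, the neuronal N-type channel, was 11.6, 7.97 and 14.7 CPM in cTEC and 109, 72.4 and 92.4 CPM in mTEC (log2 fold change 2.99 ± 0.24, adjusted p = 6.42e-05). Cacna1h, a T-type channel, was 2.25, 1.16 and 1.72 CPM in cTEC and 28, 20.7 and 32.5 CPM in mTEC (log2 fold change 3.97 ± 0.29, adjusted p = 4.47e-05).

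Keratins (Krt) were higher in mTEC for 25 of 42 and in cTEC for 2, Krt18 and Krt19. Without mTEC replicate 1 the medullary count was 16, and with all 15 libraries 12. It was 32 with the replicate block, 33 without a filter and 30 with DESeq2. Krt20, a keratin of gut and Merkel cells, was 3.76 ± 0.908 CPM in cTEC and 27.5 ± 10.4 CPM in mTEC (log2 fold change 2.87 ± 0.33, adjusted p = 0.000353). Krt76, an oral keratin, was 1.38 ± 0.705 CPM in cTEC and 13.6 ± 4.43 CPM in mTEC (log2 fold change 3.28 ± 0.42, adjusted p = 0.000643). Krt19, of simple epithelia, was 155, 226 and 75.9 CPM in cTEC and 47.1, 41.4 and 49.4 CPM in mTEC (log2 fold change -1.73 ± 0.33, adjusted p = 0.00384). Krt18 was 2648, 3343 and 3700.3 CPM in cTEC and 1800.2, 2393 and 1869.8 CPM in mTEC (log2 fold change -0.68 ± 0.23, adjusted p = 0.0445), a call lost when any single library except mTEC replicate 2 was left out. Membrane-bound metalloproteases (Adam) gave 8 of 14 in mTEC, 5 without mTEC replicate 1, and 2 in cTEC. Type II transmembrane serine proteases (Tmprss) gave 6 of 10, with Tmprss4 at 15.6 ± 6.65 CPM in cTEC and 81.7 ± 26.6 CPM in mTEC (log2 fold change 2.39 ± 0.36, adjusted p = 0.0013). The Mcm stem, at 6 of 10 and 2 with all 15 libraries, holds the replicative helicase and is taken up with the cell cycle.

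Other stems leaned to cTEC. The histone genes (Hist) were higher in cTEC for 8 of 13 tested, yet the count was 3 without cTEC replicate 1, 1 without cTEC replicate 2, 1 without mTEC replicate 1 and 2 without mTEC replicate 3. With all 15 libraries it was 2, and 4 or 5 with RLE or upper quartile scaling, without a filter, at 1 CPM or with unstranded counts. Most histone mRNAs lack a poly(A) tail and are poorly captured by the kit used. FK506-binding proteins (Fkbp), prolyl isomerases of protein folding, gave 7 of 13, and 4 without cTEC replicate 1, 2 without cTEC replicate 2, 2 without mTEC replicate 1 and 4 without mTEC replicate 3. With all 15 libraries or expected counts it was 3, and 4 at 1 CPM or with unstranded counts. The Ndufa stem of complex I gave 6 of 13, and 1 without cTEC replicate 2, 3 without mTEC replicate 1 and 3 without mTEC replicate 2. Nudix hydrolases (Nudt) were steadier, with 9 of 22 in cTEC and none in mTEC, led by Nudt16 (76.4 ± 8.71 CPM in cTEC and 21.8 ± 2.57 CPM in mTEC, log2 fold change -1.81). The oxysterol-binding stem (Osbpl) gave 4 of 10 and none in mTEC, and inositol phosphatases (Inpp) 4 of 10 with 3 in mTEC. The latter count was 1 without cTEC replicate 2, 0 without mTEC replicate 1 and 1 without mTEC replicate 3. For the kinases of the Nek stem, 4 of 10 were cortical and 2 medullary, with 0 without cTEC replicate 1 and 2 without mTEC replicate 2 cortical, and 2 at 1 CPM. The medullary count was 1 without cTEC replicate 2, 1 without cTEC replicate 3, 0 without mTEC replicate 1 and 1 without mTEC replicate 3, and 1 with all 15 libraries. Aldehyde dehydrogenases (Aldh) were divided, with 7 of 19 in cTEC and 4 in mTEC (2 without mTEC replicate 1). Aldh1l1 of folate metabolism was 115, 111 and 196 CPM in cTEC and 35.4, 34.0 and 48.4 CPM in mTEC (log2 fold change -1.84 ± 0.25, adjusted p = 0.000756). Aldh3a1, a crystallin of the cornea, was 7.57 ± 3.60 CPM in cTEC and 33.3 ± 6.00 CPM in mTEC (log2 fold change 2.14 ± 0.34, adjusted p = 0.00188). No gene was called in 5 stems: 47 ribosomal proteins of the large subunit (Rpl), 12 Hspa chaperones, 12 Alg enzymes of glycosylation, 10 guanylate-binding proteins (Gbp) and 10 Utp factors of ribosome assembly. With the replicate block, 2 Gbp genes were higher in mTEC and 3 in cTEC, 3 Alg genes were higher in cTEC, 1 Hspa gene in mTEC and 1 Utp gene in each, and no Rpl gene was called.

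**Figure D4:**
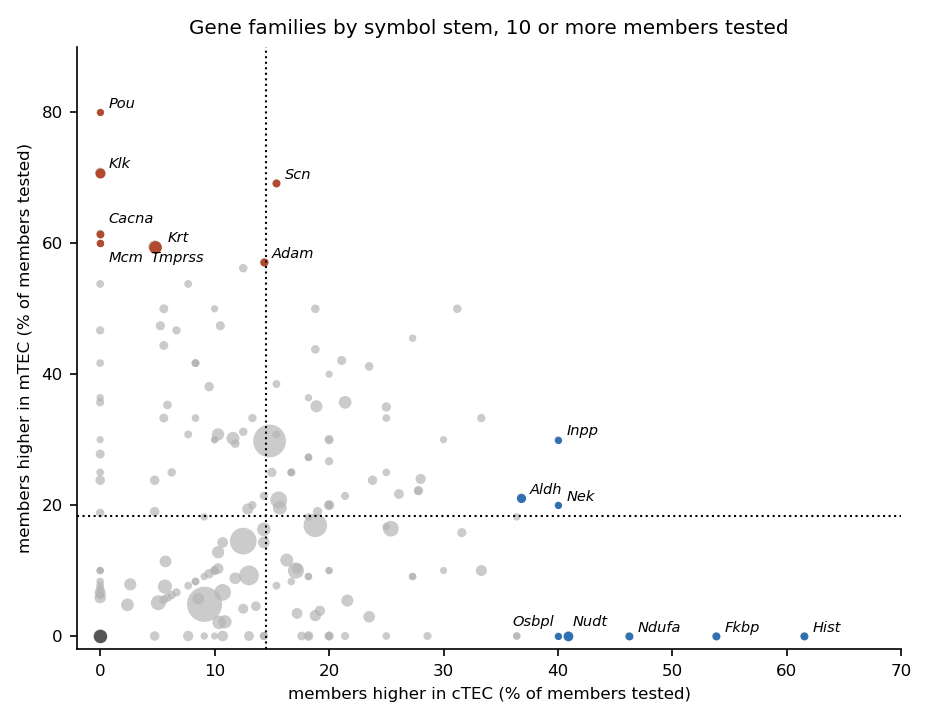
Each of 186 symbol stems is a circle, sized by members tested, at the percentage of its members higher in cTEC (horizontal) and in mTEC (vertical), with dotted lines at 14.5% and 18.3% of all genes. Pou, Klk and Scn lie highest, Hist and Fkbp furthest right, and the dark circle at 0 holds Rpl, Hspa, Alg, Gbp and Utp.

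Most genes of cell division were higher in the medulla. Of 40 genes of the cycle and of DNA replication, 31 were higher in mTEC and 1 in cTEC, with a median log2 fold change of 1.14. Without mTEC replicate 1 the count was 19. Cdk1, the kinase of entry into mitosis, was 7.54, 3.54 and 5.64 CPM in cTEC and 32.4, 20.3 and 33.4 CPM in mTEC (log2 fold change 2.36 ± 0.30, adjusted p = 0.000633). Top2a, which untangles chromosomes, was 21.4, 11.4 and 10.5 CPM in cTEC and 73.9, 36.0 and 58.5 CPM in mTEC (log2 fold change 1.95 ± 0.33, adjusted p = 0.00227). Mki67, the proliferation marker Ki-67, was 25.5, 10.6 and 17.9 CPM in cTEC and 91.3, 51.8 and 54.8 CPM in mTEC (log2 fold change 1.87 ± 0.32, adjusted p = 0.00267). In all 3 genes the lowest mTEC pool, replicate 2, was above the highest cTEC pool. The helicase subunits Mcm3 (16.0 ± 2.56 CPM in cTEC and 36.3 ± 5.28 CPM in mTEC, log2 fold change 1.19) and Mcm6 (0.82) followed.

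D-type cyclins, which couple growth signals to the cycle, were divided between the compartments. Ccnd1 was 67.6, 65.3 and 63.2 CPM in cTEC and 133, 142 and 156 CPM in mTEC (log2 fold change 1.13 ± 0.13, adjusted p = 0.000353). Ccnd3 was 136, 183 and 148 CPM in cTEC and 83.0, 86.0 and 102 CPM in mTEC (log2 fold change -0.79 ± 0.16, adjusted p = 0.00541), the only member of the list called in cTEC. The groups did not overlap in either. Thymocytes and myeloid cells divide too. No thymocyte marker was higher in mTEC, while the summed level of myeloid markers was higher there, at 119, 82.4 and 105 CPM in cTEC and 461, 227 and 387 CPM in mTEC. Their part in the cycle genes was not tested. Among 17 inhibitors of the cycle, 2 were higher in mTEC and 4 in cTEC, 4 and 5 with the block, and the cortical calls were 0 without cTEC replicate 1, 2 without cTEC replicate 2, 2 without mTEC replicate 1 and 2 without mTEC replicate 3, and 2 with all 15 libraries, unstranded or expected counts. Cdkn2b, the p15 inhibitor, was 13.3, 10.02 and 11.5 CPM in cTEC and 37.1, 29.0 and 23.7 CPM in mTEC (log2 fold change 1.36 ± 0.21, adjusted p = 0.00147). Cdkn2a was 4.78 ± 1.32 CPM in cTEC and 10.2 ± 2.90 CPM in mTEC (log2 fold change 1.09 ± 0.32, adjusted p = 0.0268), a call lost without any 1 of 4 libraries, cTEC replicates 2 and 3 and mTEC replicates 1 and 3.

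The promoter of Cdk1 is shown as an example from this list. It was chosen as the called medullary member of smallest adjusted p whose window held the motifs described next, so its matches were set by the choice. In promoters of the late cycle, CCAAT boxes bound by NF-Y stand near a cell-cycle homology region, of which TTTGAA is the common core. The 300-base window at chr10:69352863-69353162 (GRCm38.p6, minus strand, RefSeq) is printed with matches to either motif on either strand in capitals.
Cdk1: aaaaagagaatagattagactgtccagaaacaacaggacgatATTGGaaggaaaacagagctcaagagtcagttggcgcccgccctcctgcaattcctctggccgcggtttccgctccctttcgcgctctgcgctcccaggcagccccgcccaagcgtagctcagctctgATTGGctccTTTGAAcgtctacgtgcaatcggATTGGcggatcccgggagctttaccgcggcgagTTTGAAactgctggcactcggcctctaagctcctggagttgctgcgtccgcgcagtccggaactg
Among the called medullary cycle genes with a window, 22 of 25 (88%) held CCAAT and 13 of 25 (52%) held TTTGAA. Among all members of the list with a window, called or not, 25 of 32 (78.1%) and 13 of 32 (40.6%) did. The shares over all tested genes with a window were 41.9% and 14.9%. The motifs do not overlap each other, and a match is a description of the letters, not a binding site.

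Among metabolic lists, fatty acid oxidation and cholesterol synthesis leaned towards the cortex. Oxidation in mitochondria and peroxisomes had 17 of 28 genes higher in cTEC and none in mTEC, with a median log2 fold change of -0.60. Leaving out any 1 library moved this count by less than 1.5 times. Acaa2, the thiolase of the last mitochondrial step, was 101, 107 and 127 CPM in cTEC and 30.1, 32.3 and 39.5 CPM in mTEC (log2 fold change -1.72 ± 0.16, adjusted p = 0.000124). Hadhb, of the trifunctional enzyme, was 73.4, 66.0 and 88.4 CPM in cTEC and 34.1, 35.9 and 35.2 CPM in mTEC (log2 fold change -1.12 ± 0.15, adjusted p = 0.000723). Cpt1a, which admits long-chain acyl groups to mitochondria, was 289, 245 and 449 CPM in cTEC and 113, 109 and 155 CPM in mTEC (log2 fold change -1.38 ± 0.25, adjusted p = 0.00305). Each mTEC pool was under each cTEC pool in these genes. The medium-chain dehydrogenase Acadm was 36.7 ± 0.194 CPM in mTEC and 69.0 ± 3.43 CPM in cTEC (log2 fold change -0.91), and Etfa, which passes on their electrons, differed by -0.77. Fold changes within the list were mostly under 2-fold. The citric acid cycle, by contrast, had Suclg2 alone called of 21, in cTEC, and 6 with the block.

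Cholesterol synthesis was lower in mTEC for 10 of 25 genes and higher for 2, with a median of -0.53. Without cTEC replicate 1 the cortical count was 6 and without cTEC replicate 2 it was 5. Sc5d, a late sterol desaturase, was 173, 144 and 174 CPM in cTEC and 72.1, 78.1 and 66.7 CPM in mTEC (log2 fold change -1.18 ± 0.14, adjusted p = 0.000452). Mvk, mevalonate kinase, was 16.7, 23.2 and 24.6 CPM in cTEC and 8.05, 9.68 and 9.82 CPM in mTEC (log2 fold change -1.22 ± 0.21, adjusted p = 0.00251). Hsd17b7, a sterol ketoreductase, was 19.8, 15.6 and 23.7 CPM in cTEC and 9.76, 8.12 and 6.53 CPM in mTEC (log2 fold change -1.27 ± 0.23, adjusted p = 0.00343). Among the genes higher in mTEC, Stard4, a sterol carrier rather than an enzyme, was 4.64 ± 1.47 CPM in cTEC and 13.5 ± 3.48 CPM in mTEC (log2 fold change 1.54 ± 0.31, adjusted p = 0.00492). Srebf2, the master factor of the pathway, was not called and had a log2 fold change of -0.33.

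Many promoters of sterol genes combine a sterol element with a CCAAT box, and that of Sc5d is shown. It was chosen as the called cortical member of smallest adjusted p whose window held CCAAT, so its match was set by the choice. Its window is chr9:42264251-42264550 (GRCm38.p6, minus strand, RefSeq), with CCAAT on either strand in capitals.
Sc5d: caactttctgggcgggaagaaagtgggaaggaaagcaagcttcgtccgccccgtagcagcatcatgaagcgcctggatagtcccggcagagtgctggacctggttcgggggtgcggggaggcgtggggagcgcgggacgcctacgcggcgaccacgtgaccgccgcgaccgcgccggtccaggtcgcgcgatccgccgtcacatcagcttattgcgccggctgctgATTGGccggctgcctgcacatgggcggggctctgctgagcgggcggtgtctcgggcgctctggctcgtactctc
All 8 cholesterol genes called higher in cTEC that had a window held CCAAT, and 16 of 17 (94.1%) members with a window did, against 41.9% of tested genes. Of the called genes of fatty acid oxidation, 8 of 15 (53.3%) held it.

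Genes of fatty acid synthesis ran in both directions. The cytosolic synthase Fasn was 212, 215 and 338 CPM in cTEC and 109.9, 106 and 141 CPM in mTEC (log2 fold change -1.10 ± 0.22, adjusted p = 0.00463). Its regulator Srebf1 was 263, 319.7 and 373 CPM in cTEC and 124, 135 and 173 CPM in mTEC (log2 fold change -1.15 ± 0.19, adjusted p = 0.00223). Both were higher in cTEC. Acacb, the mitochondrial acetyl-CoA carboxylase whose product restrains CPT1, was 7.09, 5.38 and 5.16 CPM in cTEC and 104, 47.7 and 108 CPM in mTEC (log2 fold change 3.87 ± 0.32, adjusted p = 7.14e-05). The desaturase Scd1 was 49.9, 37.3 and 39.8 CPM in cTEC and 174, 123 and 172 CPM in mTEC (log2 fold change 1.88 ± 0.19, adjusted p = 0.000168). Both were higher in mTEC, as were 6 of the 24 genes in all, 3 with all 15 libraries. Glycolysis had 5 genes in each direction of 28, with the medullary count at 3 without cTEC replicate 3, 2 without mTEC replicate 1 and 3 without mTEC replicate 3, and the cortical one at 3 with all 15 libraries. On the medullary side was Eno2, an isoform of neurons (1.83), and Aldoa (-0.78), Ldhb (-0.78) and Pdk1 (-0.93) were on the cortical side.

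Among 38 genes of glutathione and the NRF2 response, 8 were higher in cTEC and 5 in mTEC, the latter 3 with all 15 libraries. Nqo1, a quinone reductase and standard NRF2 target, was 131, 140.1 and 231 CPM in cTEC and 27.0, 27.0 and 31.9 CPM in mTEC (log2 fold change -2.55 ± 0.23, adjusted p = 0.000106). The glutathione transferase Gstm2 was 145, 188 and 156 CPM in cTEC and 24, 22.6 and 24 CPM in mTEC (log2 fold change -2.79 ± 0.15, adjusted p = 1.27e-05), with the reservation that it shares sequence with its cluster. Gpx2, a glutathione peroxidase of gut epithelium, was higher in mTEC (4.09 ± 1.58 CPM in cTEC and 12.2 ± 0.996 CPM in mTEC, log2 fold change 1.57 ± 0.31, adjusted p = 0.00495). Slc7a11, the cystine importer, was 52.6, 39.7 and 35.1 CPM in cTEC and 135, 128 and 119 CPM in mTEC (log2 fold change 1.58 ± 0.17, adjusted p = 0.000259), a call lost with all 15 libraries in 1 fit. The NRF2 gene Nfe2l2 itself was not called (log2 fold change -0.27). In the unfolded protein response 5 of 25 genes were higher in mTEC, 8 with the block, and 3 without cTEC replicate 1, 3 without cTEC replicate 3 and 1 without mTEC replicate 1. Herpud1 of ER-associated degradation was 113, 129 and 72.3 CPM in cTEC and 209.9, 208 and 187 CPM in mTEC (log2 fold change 0.94 ± 0.21, adjusted p = 0.00749).

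**Figure D5:**
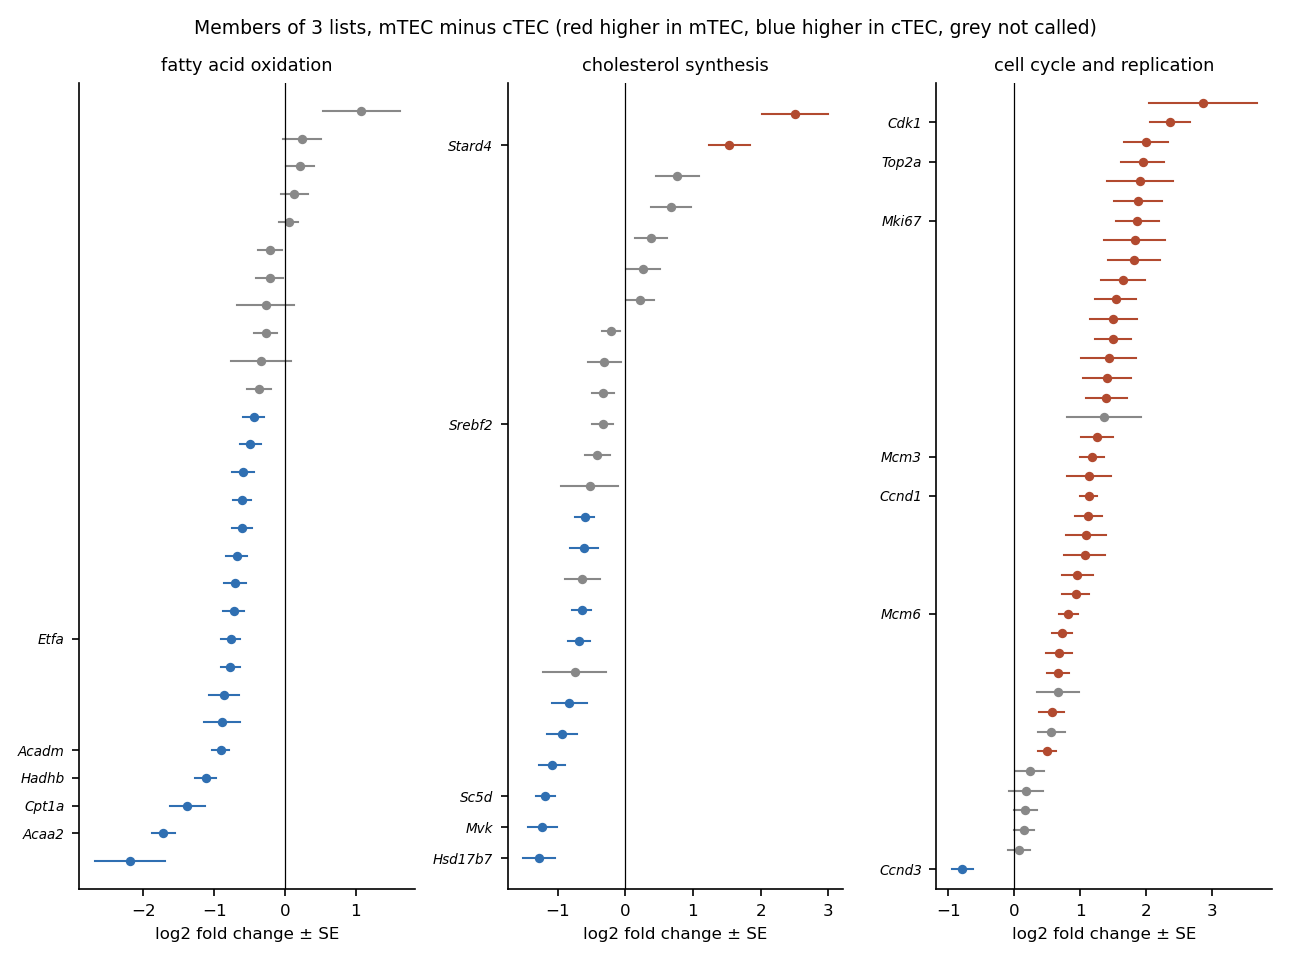
Log2 fold changes with standard errors of the members of the fatty acid oxidation, cholesterol synthesis and cell cycle lists, in red where higher in mTEC, blue where higher in cTEC and grey where not called, with the genes described in the text named. Most cell cycle genes lie to the right of 0 (median 1.14), most oxidation (-0.60) and cholesterol genes (-0.53) to the left.

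Basement membrane and matrix genes were higher in cTEC for 16 of 35 and in mTEC for 6 (median -0.28), the latter 3 without cTEC replicate 3, 3 without mTEC replicate 1 and 3 without mTEC replicate 2. With all 15 libraries the counts were 10 and 2. Col4a5 and Col4a6 are neighbouring collagen IV chains of epithelial basement membranes. Col4a5 was 70.3, 59.6 and 78.2 CPM in cTEC and 14.8, 13.4 and 12.8 CPM in mTEC (log2 fold change -2.34 ± 0.16, adjusted p = 3.16e-05). Col4a6 was 15.5, 10.7 and 13.2 CPM in cTEC and 2.06, 1.88 and 1.49 CPM in mTEC (log2 fold change -2.86 ± 0.28, adjusted p = 0.000176). Col7a1, the anchoring fibril collagen, was 104, 109 and 95.6 CPM in cTEC and 21.3, 19.4 and 20.5 CPM in mTEC (log2 fold change -2.34 ± 0.13, adjusted p = 1.58e-05). Fras1, a basement membrane adhesion protein, was 64.5, 67.7 and 71.4 CPM in cTEC and 13.7, 11.4 and 14.3 CPM in mTEC (log2 fold change -2.37 ± 0.15, adjusted p = 2.37e-05). No mTEC pool reached a cTEC pool in these 4 genes. Markers of fibroblasts and pericytes were not uniform beside them: Dcn was 511, 386 and 253 CPM in cTEC and 80.5, 114 and 67.9 CPM in mTEC (log2 fold change -2.13 ± 0.28, adjusted p = 0.000746). The list pools fibroblast and pericyte markers, and its summed level was 890, 746 and 482 CPM in cTEC and 1330, 1270 and 1260 CPM in mTEC. Most of the mTEC sum came from the pericyte markers Rgs5 and Acta2, given with the other cell types. The part of such cells in the matrix genes was not tested.

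Cell junction genes leaned to the medulla. Of 26 tight junction genes 13 were higher in mTEC and 2 in cTEC (median 0.96). Ocln, the strand protein occludin, was 8.55, 7.15 and 4.68 CPM in cTEC and 36.9, 50.9 and 20.2 CPM in mTEC (log2 fold change 2.40 ± 0.35, adjusted p = 0.00112). Marveld2 of tricellular contacts was 6.42, 4.16 and 6.61 CPM in cTEC and 27.3, 23.2 and 18.8 CPM in mTEC (log2 fold change 2.01 ± 0.24, adjusted p = 0.000486). Cldn9 was 7.03, 12.1 and 5.16 CPM in cTEC and 22.3, 37.8 and 26.8 CPM in mTEC (log2 fold change 1.84 ± 0.32, adjusted p = 0.0027). Cldn5, the claudin of endothelium, was 3.43, 4.91 and 7.57 CPM in cTEC and 0.940, 0.455 and 1.08 CPM in mTEC (log2 fold change -2.66 ± 0.48, adjusted p = 0.00319). Desmosome and cadherin genes gave 9 of 29 in mTEC, mostly desmogleins. Dsg2 was 179, 140.4 and 146 CPM in cTEC and 495, 541 and 380.4 CPM in mTEC (log2 fold change 1.60 ± 0.19, adjusted p = 0.000407). Dsg1b was 1.06 ± 0.364 CPM in cTEC and 16.0 ± 4.57 CPM in mTEC (log2 fold change 3.89 ± 0.36, adjusted p = 0.000117). The 1 cortical member, Nectin1 (log2 fold change -0.65 ± 0.20, adjusted p = 0.0349), lost its call without cTEC replicate 2, cTEC replicate 3, mTEC replicate 1 or mTEC replicate 2.

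Integrins were called for 7 of 19 in mTEC and 3 in cTEC, 5 with the block. Itgb8, which activates latent TGF-beta, was 6.98, 3.47 and 4.82 CPM in cTEC and 31.8, 16.7 and 16.0 CPM in mTEC (log2 fold change 2.07 ± 0.35, adjusted p = 0.00227). Itgb7, which pairs into the E-cadherin receptor of lymphocytes, was 12.5, 15.9 and 18.2 CPM in cTEC and 3.12, 2.86 and 3.5 CPM in mTEC (log2 fold change -2.29 ± 0.25, adjusted p = 0.000271). Itga1, a collagen receptor chain, was 21 ± 3.77 CPM in mTEC and 43.6 ± 7.53 CPM in cTEC (log2 fold change -1.05 ± 0.19, adjusted p = 0.00323). Proteases of the matrix and their inhibitors gave 14 of 33 in mTEC (median 0.78), 6 without mTEC replicate 1 and 9 without mTEC replicate 3, and 5 in cTEC, 3 with all 15 libraries. Mmp15, a membrane metalloprotease, was 36.9, 27.8 and 24 CPM in cTEC and 102, 85.0 and 124 CPM in mTEC (log2 fold change 1.81 ± 0.20, adjusted p = 0.000322). The epithelial protease St14 was 106, 120.3 and 94.4 CPM in cTEC and 217, 232 and 229 CPM in mTEC (log2 fold change 1.08 ± 0.14, adjusted p = 0.000766). On the cortical side the urokinase Plau was 223, 165 and 278 CPM in cTEC and 69.0, 61.1 and 57.5 CPM in mTEC (log2 fold change -1.83 ± 0.20, adjusted p = 0.000289). The secreted metalloprotease Mmp28 was 84.7, 102 and 131 CPM in cTEC and 20.6, 24.7 and 31.0 CPM in mTEC (log2 fold change -2.05 ± 0.21, adjusted p = 0.000195).

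NF-kB and the TNF receptor family transmit the RANK, CD40 and lymphotoxin signals on which mTEC depend. Of 47 genes 19 were higher in mTEC and 4 in cTEC (median 0.77), and with the block 27 and 7. Tnfrsf9, the costimulatory receptor 4-1BB, was 3.38, 3.20 and 3.37 CPM in cTEC and 35.1, 14.2 and 30.2 CPM in mTEC (log2 fold change 3.0 ± 0.33, adjusted p = 0.00032). Tnfrsf11b, the decoy for RANK ligand, was 9.29, 8.24 and 7.98 CPM in cTEC and 62.4, 34.4 and 31.9 CPM in mTEC (log2 fold change 2.33 ± 0.27, adjusted p = 0.000356). Nfkbie, an inhibitor that NF-kB itself induces, was 105, 109 and 101 CPM in cTEC and 257, 256 and 210.0 CPM in mTEC (log2 fold change 1.2 ± 0.14, adjusted p = 0.000452). The subunits were divided, as Nfkb1 was 468, 494 and 529 CPM in cTEC and 264, 309.7 and 251 CPM in mTEC (log2 fold change -0.86 ± 0.16, adjusted p = 0.00362) while Nfkb2 and Relb of the alternative pathway differed by 1.01 and 0.78, a pair picked after its values were seen. Ltbr, the lymphotoxin receptor, was 104 ± 13 CPM in mTEC and 172 ± 14.6 CPM in cTEC (log2 fold change -0.72 ± 0.15, adjusted p = 0.00568). Tnfrsf19 was 4.07 ± 0.757 CPM in mTEC and 37.2 ± 7.92 CPM in cTEC (log2 fold change -3.19 ± 0.23, adjusted p = 4.33e-05).

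Notch genes were divided. Among ligands that signal to progenitors, Jag1 was not called (log2 fold change 0.02) and the others were cortical, with Dll1 at 222, 224 and 184 CPM in cTEC and 64.4, 90.3 and 74.6 CPM in mTEC (log2 fold change -1.46 ± 0.17, adjusted p = 0.000366). Jag2 was at 466, 513 and 644 CPM in cTEC and 135, 153 and 225 CPM in mTEC (log2 fold change -1.66 ± 0.23, adjusted p = 0.000859). Dll4, the ligand that commits progenitors to the T lineage, was 16.2 ± 5.73 CPM in mTEC and 49.2 ± 37.0 CPM in cTEC (log2 fold change -1.60 ± 0.48, adjusted p = 0.0309). Its cTEC pools differed widely among themselves. Dlk2, a ligand-like inhibitor, was 68.1, 105 and 87.7 CPM in cTEC and 7.64, 5.91 and 11.9 CPM in mTEC (log2 fold change -3.35 ± 0.27, adjusted p = 6.42e-05), opposite to its relative Dlk1. Dll3, which acts inside the signalling cell, was higher in mTEC, at 1.80, 1.23 and 1.31 CPM in cTEC and 12.6, 13.2 and 23.1 CPM in mTEC (log2 fold change 3.49 ± 0.34, adjusted p = 0.00016). So was the feedback target Nrarp, at 11.7, 8.79 and 7.84 CPM in cTEC and 31.7, 28.6 and 34.2 CPM in mTEC (log2 fold change 1.73 ± 0.19, adjusted p = 0.000327). In all, 9 of 31 genes were higher in mTEC and 8 in cTEC.

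Wnt genes divided by ligand. Of 50 ligands, receptors and inhibitors, 17 were higher in mTEC and 12 in cTEC. Wnt10b was 2.59, 1.16 and 2.0 CPM in cTEC and 33.3, 19.9 and 42.7 CPM in mTEC (log2 fold change 4.05 ± 0.37, adjusted p = 0.000107). Wnt6 was 25.5, 33.2 and 44.7 CPM in cTEC and 5.94, 5.59 and 10.1 CPM in mTEC (log2 fold change -2.25 ± 0.29, adjusted p = 0.000633). Wnt9a was 15.4, 11 and 23.3 CPM in cTEC and 3.88, 3.12 and 3.91 CPM in mTEC (log2 fold change -2.18 ± 0.31, adjusted p = 0.000975), so both were cortical. The feedback inhibitors Nkd1 and Nkd2 were opposed. Nkd1 was 4.27 ± 2.09 CPM in mTEC and 22.4 ± 3.70 CPM in cTEC (log2 fold change -2.38 ± 0.33, adjusted p = 0.000871). Nkd2 was 7.44 ± 0.349 CPM in cTEC and 26.7 ± 3.14 CPM in mTEC (log2 fold change 1.84 ± 0.18, adjusted p = 0.000147). Kremen2, a Dickkopf coreceptor, was 8.49 ± 1.32 CPM in cTEC and 34.9 ± 8.65 CPM in mTEC (log2 fold change 2.04 ± 0.23, adjusted p = 0.000306).

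The BMP and TGF-beta pathway had 15 of 52 genes higher in mTEC and 13 in cTEC. The medullary count was 9 without cTEC replicate 3 and 8 without mTEC replicate 1, and the cortical one 8 without cTEC replicate 2 and 8 without mTEC replicate 1 or with all 15 libraries. Bmp2 was 10.2, 8.86 and 6.61 CPM in cTEC and 46.7, 41.2 and 28.1 CPM in mTEC (log2 fold change 2.17 ± 0.24, adjusted p = 0.000306). Bmp4, which sustains Foxn1 in the early thymus, was 6.98, 5.18 and 7.64 CPM in cTEC and 0.588, 0.909 and 0.463 CPM in mTEC (log2 fold change -3.34 ± 0.41, adjusted p = 0.00049). The TGF-beta receptors were divided as well. Tgfbr2 was 147, 143 and 160.1 CPM in cTEC and 46.5, 55.8 and 54.2 CPM in mTEC (log2 fold change -1.53 ± 0.14, adjusted p = 9.84e-05). The coreceptor Tgfbr3 was 237, 238 and 299.7 CPM in cTEC and 49.4, 69.9 and 60.5 CPM in mTEC (log2 fold change -2.11 ± 0.18, adjusted p = 7.95e-05). Both were cortical without overlap. Tgfbr1 was 48.1 ± 10.9 CPM in cTEC and 95.0 ± 29.2 CPM in mTEC (log2 fold change 0.98 ± 0.24, adjusted p = 0.0132).

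FGF genes were divided, with 5 of 26 genes higher in mTEC and 6 in cTEC. The endocrine ligand Fgf21 of liver was 9.96, 11.3 and 11.4 CPM in cTEC and 109, 84.0 and 139.7 CPM in mTEC (log2 fold change 3.35 ± 0.21, adjusted p = 1.96e-05). Fgfr4, the hepatic receptor, was 1.12 ± 0.256 CPM in cTEC and 11 ± 2.98 CPM in mTEC (log2 fold change 3.28 ± 0.35, adjusted p = 0.000243). Paracrine Fgf1 was 93.9, 75.6 and 84.0 CPM in cTEC and 22.5, 27.1 and 25.9 CPM in mTEC (log2 fold change -1.75 ± 0.15, adjusted p = 7.71e-05). Intracellular Fgf14, a partner of sodium channels, was 56.8, 46.9 and 102 CPM in cTEC and 21, 14.1 and 14.1 CPM in mTEC (log2 fold change -2.06 ± 0.30, adjusted p = 0.00113). In the EGF family, Nrg2 was 15.3, 21.1 and 11.6 CPM in cTEC and 2.06, 1.23 and 1.85 CPM in mTEC (log2 fold change -3.21 ± 0.33, adjusted p = 0.000191). Egfr was 155 ± 15.6 CPM in mTEC and 266 ± 25.7 CPM in cTEC (log2 fold change -0.78 ± 0.15, adjusted p = 0.00463). Both were cortical. Erbb3 was 15.6 ± 1.97 CPM in cTEC and 32.3 ± 8.74 CPM in mTEC (log2 fold change 1.04 ± 0.21, adjusted p = 0.00553). That family had 6 of 17 in mTEC, 3 without cTEC replicate 2, and 3 in cTEC. Hedgehog genes gave 4 of 14 in mTEC and 3 in cTEC, 1 and 2 with all 15 libraries. The coreceptor Gas1 was 935, 1024 and 889 CPM in cTEC and 257, 343 and 481 CPM in mTEC (log2 fold change -1.40 ± 0.24, adjusted p = 0.00237). Disp1, which releases the ligand, was 34.4 ± 5.43 CPM in mTEC and 97.4 ± 20.5 CPM in cTEC (log2 fold change -1.50 ± 0.19, adjusted p = 0.000528).

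Enzymes that make and remove retinoic acid were divided between the compartments. Cyp26a1, which degrades retinoic acid, was 1.35, 1.02 and 1.03 CPM in cTEC and 23.6, 8.64 and 20.0 CPM in mTEC (log2 fold change 3.92 ± 0.42, adjusted p = 0.000244). Its relative Cyp26b1 was 31.9, 31.6 and 95.4 CPM in cTEC and 4.70, 2.66 and 4.42 CPM in mTEC (log2 fold change -3.74 ± 0.47, adjusted p = 0.000564), at -3.07 without cTEC replicate 3. Aldh1a1, which forms retinoic acid, was 47.3, 32.0 and 33.4 CPM in cTEC and 3.70, 2.34 and 4.27 CPM in mTEC (log2 fold change -3.44 ± 0.27, adjusted p = 5.34e-05). Dhrs3, a retinal reductase, was 62.1 ± 15 CPM in mTEC and 225 ± 55.6 CPM in cTEC (log2 fold change -1.86 ± 0.24, adjusted p = 0.0006). Rdh10, which starts the synthesis, was 21.1 ± 4.81 CPM in cTEC and 60.1 ± 22.3 CPM in mTEC (log2 fold change 1.51 ± 0.28, adjusted p = 0.00379). Over 22 genes, 9 were higher in mTEC and 7 in cTEC, 5 and 6 with all 15 libraries.

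Guidance cues of growing axons leaned to the medulla, with 18 of 45 genes in mTEC and 8 in cTEC. The Slit receptor Robo1 was 122, 106 and 114 CPM in cTEC and 296, 347 and 319 CPM in mTEC (log2 fold change 1.49 ± 0.15, adjusted p = 0.000163). Its relative Robo2 was 15, 9.27 and 9.84 CPM in cTEC and 57.1, 61.9 and 62.1 CPM in mTEC (log2 fold change 2.40 ± 0.20, adjusted p = 7.5e-05). Their ligand Slit1 was 0.809 ± 0.270 CPM in cTEC and 15 ± 6.65 CPM in mTEC (log2 fold change 4.20 ± 0.46, adjusted p = 0.000275). The transmembrane semaphorin Sema6a was 5.60 ± 1.65 CPM in cTEC and 38.5 ± 8.30 CPM in mTEC (log2 fold change 2.77 ± 0.26, adjusted p = 0.00013). Of the netrin receptors, Unc5a was 12.0 ± 3.90 CPM in mTEC and 42.0 ± 12.9 CPM in cTEC (log2 fold change -1.80 ± 0.29, adjusted p = 0.00188). Unc5b was 16.4 ± 3.75 CPM in mTEC and 37.5 ± 4.55 CPM in cTEC (log2 fold change -1.19 ± 0.20, adjusted p = 0.00237). Unc5c was higher in mTEC (log2 fold change 1.21). Eph receptors and ephrins showed 4 of 21 in mTEC and 3 in cTEC. The first count was 2 without cTEC replicate 2, 2 without mTEC replicate 1 and 2 without mTEC replicate 3, and the second 1 without cTEC replicate 1 or with all 15 libraries. Epha1 was 57.5 ± 11.1 CPM in mTEC and 99.3 ± 5.14 CPM in cTEC (log2 fold change -0.79 ± 0.16, adjusted p = 0.00521).

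Chemokines and their scavengers gave 16 of 36 in mTEC and 5 in cTEC (median 1.08). Cxcl12, which holds progenitors in the cortex, was 1065, 1057 and 1925 CPM in cTEC and 130.1, 183 and 169 CPM in mTEC (log2 fold change -3.07 ± 0.29, adjusted p = 0.000129). Ackr4, which removes CCL19, CCL21 and CCL25, was 434, 335 and 477 CPM in cTEC and 21.6, 25.3 and 45.0 CPM in mTEC (log2 fold change -3.76 ± 0.30, adjusted p = 6.01e-05). Ackr2, a scavenger of inflammatory CC chemokines, was 0.148 ± 0.0715 CPM in cTEC and 3.4 ± 1.32 CPM in mTEC (log2 fold change 4.45 ± 0.61, adjusted p = 0.000835). Ccl25 was 899, 794 and 2399.5 CPM in cTEC and 257, 142 and 202 CPM in mTEC (log2 fold change -2.77 ± 0.44, adjusted p = 0.00167), at -2.14 without cTEC replicate 3. Ccl21a, which draws positively selected thymocytes into the medulla, was 1068, 1400.0 and 615 CPM in cTEC and 1592, 2403 and 2135 CPM in mTEC (log2 fold change 0.99 ± 0.31, adjusted p = 0.033), and near-identical Ccl21 copies make its count uncertain. Cxcl14 was 7.37, 9.95 and 7.29 CPM in cTEC and 59.7, 94.3 and 108 CPM in mTEC (log2 fold change 3.41 ± 0.25, adjusted p = 4.33e-05). Ccl20, the CCR6 ligand, was 4.78, 3.54 and 4.89 CPM in cTEC and 31.9, 16.1 and 19.1 CPM in mTEC (log2 fold change 2.34 ± 0.30, adjusted p = 0.000596).

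Several cytokines that support progenitors and myeloid cells were cortical. Kitl, stem cell factor, was 59.9, 41.2 and 60.8 CPM in cTEC and 9.58, 8.18 and 7.10 CPM in mTEC (log2 fold change -2.70 ± 0.21, adjusted p = 5.11e-05). The CSF1 receptor ligand Csf1 was 312, 305 and 320.3 CPM in cTEC and 134, 160.4 and 164 CPM in mTEC (log2 fold change -1.03 ± 0.15, adjusted p = 0.00104). The second such ligand, Il34, was 30.3, 39.4 and 41.7 CPM in cTEC and 6.41, 6.69 and 6.22 CPM in mTEC (log2 fold change -2.53 ± 0.18, adjusted p = 4.25e-05). The alarmin Il33 was 45.9, 16.8 and 29.1 CPM in cTEC and 6.88, 4.87 and 3.70 CPM in mTEC (log2 fold change -2.58 ± 0.37, adjusted p = 0.00114). Il23a was medullary, at 16.2, 14.2 and 15.1 CPM in cTEC and 103, 96.9 and 71.4 CPM in mTEC (log2 fold change 2.57 ± 0.17, adjusted p = 3.16e-05). So was the decoy Il1rn, at 26.3, 16.9 and 16.4 CPM in cTEC and 117, 115 and 68.6 CPM in mTEC (log2 fold change 2.33 ± 0.26, adjusted p = 0.000313). Of 30 cytokines 4 were higher in mTEC, 10 with the block or without a filter, 7 with DESeq2 and 8 without cTEC replicate 1, and 5 in cTEC. Il7, the survival factor of early thymocytes, was not called (158 ± 30.5 CPM in mTEC and 174 ± 13.3 CPM in cTEC, log2 fold change -0.13 ± 0.17, adjusted p = 0.58).

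Of 27 costimulatory and checkpoint ligands 8 were higher in mTEC, 15 with the block and 14 without a filter. Icosl was 39.3, 36.5 and 44.0 CPM in cTEC and 211, 122 and 252 CPM in mTEC (log2 fold change 2.29 ± 0.25, adjusted p = 0.000277). Cd80 was 9.85, 4.16 and 7.78 CPM in cTEC and 55.4, 24.9 and 28.5 CPM in mTEC (log2 fold change 2.31 ± 0.38, adjusted p = 0.00195). Cd40 was 27.1, 23.1 and 49.2 CPM in cTEC and 112, 76.5 and 108 CPM in mTEC (log2 fold change 1.58 ± 0.28, adjusted p = 0.00294). Cd200, an inhibitory ligand, was the 1 cortical member, at 118, 112 and 100.2 CPM in cTEC and 34.7, 40.7 and 41.6 CPM in mTEC (log2 fold change -1.50 ± 0.14, adjusted p = 0.000124). Myeloid and B cells also make CD80 and CD40. The part of such cells was not tested, and their markers are given with the other cell types.

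Genes of antigen presentation were called about as often as all genes tested, of which 32.8% were called. For MHC class I, 2 of 21 genes were higher in mTEC and 4 in cTEC, the latter 2 without cTEC replicate 2, 2 without cTEC replicate 3, 2 without mTEC replicate 1 and 2 without mTEC replicate 2, and 2 with upper quartile scaling. Psmb9, an immunoproteasome subunit, was 259, 332 and 380.1 CPM in cTEC and 125, 133 and 143 CPM in mTEC (log2 fold change -1.27 ± 0.18, adjusted p = 0.000871). Psme1 of the proteasome activator was higher in mTEC, at 132 ± 36.3 CPM in cTEC and 236 ± 20.8 CPM in mTEC (log2 fold change 0.84 ± 0.21, adjusted p = 0.0133). So was Nlrc5, the class I transactivator, at 82.8 ± 10.9 CPM in cTEC and 142 ± 20.6 CPM in mTEC (log2 fold change 0.77 ± 0.16, adjusted p = 0.00609). For MHC class II, H2-DMa, a peptide exchanger, was 169.6 ± 23.3 CPM in mTEC and 392 ± 58.5 CPM in cTEC (log2 fold change -1.21 ± 0.18, adjusted p = 0.00123). Ifi30, the lysosomal thiol reductase, was 103 ± 9.58 CPM in cTEC and 198 ± 41.2 CPM in mTEC (log2 fold change 0.95 ± 0.18, adjusted p = 0.00377). The class II counts were 3 in mTEC and 2 in cTEC of 14.

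Cysteine cathepsins, which cut peptides for MHC class II, were divided between the compartments. Ctsl, the cortical one, was 4624, 4523 and 6811 CPM in cTEC and 1806, 2452 and 2079.9 CPM in mTEC (log2 fold change -1.33 ± 0.25, adjusted p = 0.00389). Ctss was 24.4, 12.3 and 26.1 CPM in cTEC and 108, 63.6 and 93.8 CPM in mTEC (log2 fold change 2.08 ± 0.29, adjusted p = 0.00099). Ctsh was 32.1, 20.1 and 25.6 CPM in cTEC and 147, 77.9 and 138 CPM in mTEC (log2 fold change 2.22 ± 0.26, adjusted p = 0.000415). Ctsz was 59.6, 48.1 and 40.8 CPM in cTEC and 179, 117 and 176 CPM in mTEC (log2 fold change 1.67 ± 0.21, adjusted p = 0.000545). Ctss, Ctsh and Ctsz were medullary without overlap. Of 19 lysosomal proteases and inhibitors 6 were higher in mTEC and 7 in cTEC, 4 of these without cTEC replicate 2. Ctss, Ctsh and Ctsz are also abundant in myeloid cells, whose marker sum was higher in mTEC.

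The count of interferon-stimulated genes moved with single libraries. Of 40 genes 4 were called higher in cTEC and none in mTEC (median -0.29), and with the block 17 and 5. The cortical calls numbered 0 without cTEC replicate 1, 0 without cTEC replicate 2, 11 without cTEC replicate 3, 0 without mTEC replicate 1, 11 without mTEC replicate 2 and 1 without mTEC replicate 3. They were 16 without a filter, where 5 were medullary, and 1 with all 15 libraries or expected counts. Ifit1 was 683, 957 and 259 CPM in cTEC and 202, 378 and 146 CPM in mTEC (log2 fold change -1.39 ± 0.47, adjusted p = 0.0466). Ifit1 lost the call without cTEC replicate 1, cTEC replicate 2 or mTEC replicate 1. For Ifit1 the groups overlapped. Complement gave 5 of 20 in mTEC, 8 with the block, without a filter or with DESeq2, and 3 in cTEC (1 without cTEC replicate 1, mTEC replicate 2 or mTEC replicate 3). C1s1, a protease of the classical pathway, was 129.7, 102 and 67.9 CPM in cTEC and 272, 326 and 328 CPM in mTEC (log2 fold change 1.63 ± 0.23, adjusted p = 0.000981).

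Transcription factors of the pharyngeal pouch, from which the thymus arises, were called in both directions. Of 38 homeobox and pouch factors, 10 were higher in cTEC, 6 without cTEC replicate 2 and 5 with all 15 libraries, and 8 in mTEC, 4 without mTEC replicate 1 and 3 without mTEC replicate 3. Pax1 was 697, 849.6 and 1069.9 CPM in cTEC and 192, 274 and 285 CPM in mTEC (log2 fold change -1.80 ± 0.23, adjusted p = 0.0006). Meis1 was 181, 211 and 197 CPM in cTEC and 80.8, 113 and 86.1 CPM in mTEC (log2 fold change -1.07 ± 0.16, adjusted p = 0.00149). Barx1, a stomach factor, was 0.732, 1.36 and 0.619 CPM in cTEC and 8.93, 9.81 and 15.4 CPM in mTEC (log2 fold change 3.65 ± 0.40, adjusted p = 0.000306). Factors of stratified and glandular epithelium gave 13 of 29 in mTEC (median 1.10) and 2 in cTEC, 5 with the block. Sox21, of hair and airway, was 4.45, 3.61 and 4.06 CPM in cTEC and 29.4, 22.0 and 22.9 CPM in mTEC (log2 fold change 2.61 ± 0.21, adjusted p = 6.18e-05). Nfib, a nuclear factor of stem cells in skin and lung, was 325, 352 and 337 CPM in cTEC and 93.0, 106 and 91.7 CPM in mTEC (log2 fold change -1.80 ± 0.14, adjusted p = 6.16e-05).

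Hormone receptors were divided, with 8 of 30 higher in cTEC and 6 in mTEC, the latter 3 without cTEC replicate 3 and 2 without mTEC replicate 1, and 3 with all 15 libraries. Thra, the thyroid hormone receptor, was 81.4, 111 and 102 CPM in cTEC and 10.8, 11.8 and 16.8 CPM in mTEC (log2 fold change -2.90 ± 0.21, adjusted p = 4.25e-05). Nr1d1, a repressor of the circadian clock, was 317, 342 and 275 CPM in cTEC and 80.7, 82.1 and 65.0 CPM in mTEC (log2 fold change -2.04 ± 0.16, adjusted p = 6.18e-05). Of the steroid receptors, the progesterone receptor Pgr was 34.5, 30.5 and 37.6 CPM in cTEC and 8.70, 9.09 and 7.10 CPM in mTEC (log2 fold change -2.04 ± 0.18, adjusted p = 8.44e-05). The oestrogen receptor Esr1 was 8.18 ± 2.32 CPM in cTEC and 13.5 ± 1.10 CPM in mTEC (log2 fold change 0.72 ± 0.24, adjusted p = 0.0473). The vitamin D receptor Vdr was 33.9, 24.9 and 35.6 CPM in cTEC and 83.9, 58.8 and 77.4 CPM in mTEC (log2 fold change 1.22 ± 0.19, adjusted p = 0.00156). Nr1d1 lies opposite to Thra on overlapping ends of the same locus, and the counts were taken by strand.

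Genes tied to AIRE function were called about as often as all genes tested. Of 25 genes in this list, not all of them chromatin regulators, 5 were higher in mTEC, Aire among them, and 3 in cTEC. The shares of all genes were 18.3% and 14.5%. The medullary count was 3 without cTEC replicate 3 and 3 without mTEC replicate 1. Parp1, found in AIRE complexes, was 33.9 ± 2.85 CPM in cTEC and 58.3 ± 7.01 CPM in mTEC (log2 fold change 0.78 ± 0.15, adjusted p = 0.00384). Sirt1, which deacetylates AIRE, was 69.6, 56.0 and 44.1 CPM in cTEC and 196, 163 and 67.7 CPM in mTEC (log2 fold change 1.33 ± 0.34, adjusted p = 0.016), with mTEC replicate 3 inside the cortical range and a call lost without cTEC replicate 3 or mTEC replicate 1. Mbd2, a reader of methylated DNA, was higher in cTEC, at 189, 202 and 205 CPM in cTEC and 76.9, 104 and 70.3 CPM in mTEC (log2 fold change -1.25 ± 0.17, adjusted p = 0.000835). So was Dnajc13, at 274, 213 and 361 CPM in cTEC and 94.0, 88.0 and 84.1 CPM in mTEC (log2 fold change -1.67 ± 0.20, adjusted p = 0.000439). Enzymes of DNA and histone H3 methylation gave 8 of 33 in mTEC, 5 without cTEC replicate 2, 5 without mTEC replicate 1 and 5 without mTEC replicate 2, and Ezh1 in cTEC. Uhrf1 and Dnmt1 copy methylation at replication. Uhrf1 was 14.6, 9.06 and 11.1 CPM in cTEC and 42.4, 31.8 and 51.2 CPM in mTEC (log2 fold change 1.85 ± 0.23, adjusted p = 0.000598). Dnmt1 was 60.1, 47.9 and 53.5 CPM in cTEC and 88.8, 79.0 and 98.4 CPM in mTEC (log2 fold change 0.72 ± 0.15, adjusted p = 0.00537). Dnmt3l, a germline cofactor, was 2.19, 1.57 and 2.61 CPM in cTEC and 17.7, 6.88 and 14.9 CPM in mTEC (log2 fold change 2.63 ± 0.40, adjusted p = 0.00135). Ezh2 of the Polycomb complex was 13.1, 7.29 and 11.5 CPM in cTEC and 33.6, 25.4 and 24.1 CPM in mTEC (log2 fold change 1.38 ± 0.24, adjusted p = 0.00294).

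The Bcl2 family, which sets the threshold of apoptosis, had 7 of 21 genes higher in mTEC and 5 in cTEC. The cortical count was 2 without cTEC replicate 1, 2 without cTEC replicate 2, 3 without cTEC replicate 3, 2 without mTEC replicate 1 and 2 without mTEC replicate 2, 2 with all 15 libraries or upper quartile scaling, and 3 at 1 CPM, with DESeq2 or with expected counts. Pmaip1, the BH3-only protein NOXA, was 27.5, 17.4 and 11.4 CPM in cTEC and 91.7, 73.5 and 43.2 CPM in mTEC (log2 fold change 1.89 ± 0.35, adjusted p = 0.00342). Bbc3, the BH3-only protein PUMA, was 18.7, 20.5 and 16.5 CPM in cTEC and 34.9, 30.0 and 35.2 CPM in mTEC (log2 fold change 0.84 ± 0.16, adjusted p = 0.00364). The survival gene Bcl2 was 97.1, 103 and 104 CPM in cTEC and 58.1, 65.5 and 49.5 CPM in mTEC (log2 fold change -0.81 ± 0.14, adjusted p = 0.00276). These 2 BH3-only genes were thus higher in mTEC and Bcl2 higher in cTEC, without overlap. Bok, Bid and Bad, which also favour death, were called in cTEC (-0.85, -0.67 and -0.56).

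Markers of other cells that a sort may carry along differed between the groups. Thymocyte markers were higher in cTEC for 11 of 19 and in mTEC for none, 5 with all 15 libraries. Rag1 was 31.3, 17.4 and 22.2 CPM in cTEC and 8.40, 3.44 and 4.11 CPM in mTEC (log2 fold change -2.15 ± 0.36, adjusted p = 0.00221). Cd8b1 was 14.4, 12.4 and 11.8 CPM in cTEC and 3.47, 1.56 and 2.06 CPM in mTEC (log2 fold change -2.44 ± 0.33, adjusted p = 0.000794). Myeloid markers were higher in mTEC for 6 of 15 and in cTEC for 1, Cd68, a call lost without any single library other than mTEC replicate 1. S100a8, of neutrophils and of stratified epithelium, was 4.73, 3.47 and 1.65 CPM in cTEC and 49.0, 25.5 and 42.9 CPM in mTEC (log2 fold change 3.56 ± 0.37, adjusted p = 0.000231). Lyz2 was 34.2, 17.4 and 36.1 CPM in cTEC and 171, 70.3 and 157 CPM in mTEC (log2 fold change 2.18 ± 0.36, adjusted p = 0.0022). The dendritic cell markers Xcr1, Clec9a and Siglech were too low to be tested.

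B cell markers summed to 158, 95.8 and 54.7 CPM in cTEC and 193, 106 and 186 CPM in mTEC, and 4 of 7 were higher in mTEC. The sums overlapped between the groups, and much of the mTEC sum came from Blnk alone. Blnk was 14.3, 11.8 and 7.71 CPM in cTEC and 90.3, 56.8 and 81.1 CPM in mTEC (log2 fold change 2.75 ± 0.26, adjusted p = 0.00013). Ms4a1, which encodes CD20, had no read in any cTEC pool and 25, 1 and 3 reads in the mTEC pools, so mTEC replicate 1 held most of them. Pericyte markers were higher in mTEC, with Rgs5 at 68.9, 57.8 and 40.7 CPM in cTEC and 627, 599 and 521 CPM in mTEC (log2 fold change 3.38 ± 0.22, adjusted p = 2.86e-05). Acta2 was at 211, 146 and 121 CPM in cTEC and 507, 497 and 566 CPM in mTEC (log2 fold change 1.71 ± 0.22, adjusted p = 0.000605). The fibroblast gene Dcn ran the other way. The list as a whole had 6 of 12 in mTEC and 4 in cTEC, the latter 2 without cTEC replicate 2, 2 without mTEC replicate 1 and 2 without mTEC replicate 3, and 2 with all 15 libraries. Endothelial markers summed to 26.6, 32 and 34.1 CPM in cTEC and 72.1, 49.2 and 60.8 CPM in mTEC, with Vwf (3.09) and Flt1 (1.98) higher in mTEC and Cldn5 in cTEC. Pecam1 and Cdh5, their defining genes, were not called. Of the erythroid list only Alas2 could be tested (log2 fold change 2.88 ± 0.59, adjusted p = 0.0056), and the globin genes were near 0.

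General epithelial markers summed to 7480, 8740 and 8520 CPM in cTEC and 7170, 8680 and 7640 CPM in mTEC, with overlapping ranges and 6 of 16 higher in mTEC, 3 without cTEC replicate 3 and 3 without mTEC replicate 1, and 2 in cTEC. Genes induced by tissue dissociation summed to 43600, 67700 and 30100 CPM in cTEC and 28600, 42500 and 31800 CPM in mTEC and were highest in cTEC replicate 2. Of 19 of them, Egr3 was higher in mTEC (10.9, 11.2 and 5.50 CPM in cTEC and 43.3, 57.5 and 38.5 CPM in mTEC, log2 fold change 2.33 ± 0.28, adjusted p = 0.000442) and Ier3 in cTEC (388, 465 and 264 CPM in cTEC and 142, 170.4 and 159.9 CPM in mTEC, log2 fold change -1.24 ± 0.21, adjusted p = 0.00261), and 5 were higher in cTEC with the block and 4 without a filter or without cTEC replicate 3. The part of handling or of other cells in the differences between mTEC and cTEC was not tested.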

How the data were processed

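RNA of the sorted cells was isolated with TriZol and RNeasy, per the labels' protocols. The submitters' processing notes name bcl2fastq 2.20, STAR 2.5.1b, RSEM 1.2.28 and GRCm38. For the annotation no release is given in those sources. Deposited counts are raw reads per gene and strand, and the sense column was used. The authors also deposited RSEM expected counts, rounded here for an alternative, and TPM, which were not used. Reads outside genes were 26.4% to 31.2% of a library and stayed out. Symbols and coordinates came from GENCODE M21, which held 50376 of 50600 identifiers.

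Counts were filtered with filterByExpr, scaled with TMM and tested with edgeR 4.0.16 (quasi-likelihood F-test, Benjamini-Hochberg adjustment over 17231 genes, called at an adjusted p under 0.05), in the 6 thymic libraries alone. More than 2-fold changes were tested with glmTreat. The common biological coefficient of variation was 23.8%, and 17.2% with the replicate block. Standard errors and adjusted p values of genes are from the fit without the block, except where the block is named. Standard errors were taken as the size of the log2 fold change over the root of its F statistic. The script was tested on simulated data. Detection counts used libraries thinned to the smallest total and an exact permutation test without pairing. With 3 pools a group the precision is limited, and PCR reads without molecular identifiers are not independent molecules.

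Replicate numbers come from the titles. Deviations from the group mean correlated at 0.331, 0.337 and 0.186 between same-numbered cTEC and mTEC pools and at -0.284 to -0.0219 between others, so the numbers were taken to pair the pools. Nothing in the labels says that they share a day.

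Members and gene lists were chosen with earlier results of these data known. The 57 lists hold 1417 genes, 3 list entries were not found, and no set test was made. Named were the 15 largest differences in each direction, up to 4 called members per direction of a list and up to 3 of a described stem, by smallest p. The largest differences were taken among protein-coding genes called without overlap of the groups, with at least 10 CPM on the higher side and 10 reads on the lower. Srebf2, Insm1, Il7, Dll4, Jag1, Tgfbr1, Esr1, Unc5c, Ccl21a, Nfkb2, Relb, Pecam1, Cdh5, Ms4a1, Xcr1, Clec9a, Siglech and Foxj1 were named after their values were seen. Some genes that the rule selects are not reported here. A stem is the letters of a symbol before its first digit. Promoter windows are RefSeq's on GRCm38.p6, 250 bases before to 50 after a start, and 1068 list genes had one. Near-identical genes are uncertain because reads at several places were not counted.

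Alternatives were the replicate block, all 15 libraries in 1 fit, RLE and upper quartile scaling, no filter and a filter at 1 CPM in 3 libraries, DESeq2 1.42.0, unstranded counts, expected counts, thinned counts and each library left out in turn.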

Additional observations from a re-analysis of the deposited data

How the results depend on the processing

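No called gene that the naming rule selected changed direction under any alternative run. Genes named after their values were seen are not in these counts. Leaving out 1 library at a time gave 3497 to 5500 genes called, 1913 to 3592 higher in mTEC, 1584 to 2410 higher in cTEC and 823 to 2309 past 2-fold. Of 69 list counts of at least 4, 29 moved by over 1.5 times when some library was left out, 23 of them without mTEC replicate 1. Another setting moved 24, among them all 15 libraries in 1 fit (17) and the block (7), with 9 moved by any other. The detection difference of 4374.3 genes at 1 read was 1825 at 5 reads and 1602 at 10 reads. Called genes numbered 7091 with the replicate block, 4714 with all 15 libraries in 1 fit, 5547 with RLE, 5463 with upper quartile scaling, 7119 without a filter, 5100 at 1 CPM, 6463 with DESeq2, 5338 with unstranded and 5268 with expected counts, and 5593 after thinning. Of these calls, 53.8% to 66.6% were higher in mTEC over all settings. Of 409 called genes that the rule selected, 0 lost the call with the block and 61 with all 15 libraries. In the other settings with all 6 libraries 4 to 14 lost it, and 22 to 51 with 1 library left out. Beyond the counts given with their block values, the replicate block changed no other call among genes that the rule selected and that were called without it. It shared 5635 of 5659 calls and added 1456. The median kept its sign in every setting for 47 of 57 lists. The cause of these shifts was not tested. Low cortical read numbers limit the folds of the most medullary genes.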

Other observations

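Classes of transcript differed in direction. Of 15314 protein-coding genes tested, 2993 (19.5%) were higher in mTEC and 2277 (14.9%) in cTEC. Antisense transcripts ran the other way, with 36 of 417 (8.63%) higher in mTEC and 61 (14.6%) in cTEC, as did long noncoding transcripts from bidirectional promoters, with 1 of 54 in mTEC and 9 in cTEC. Processed transcripts gave 23 of 239 in mTEC and 37 in cTEC, while lincRNAs gave 57 and 50 of 379. No test was made between classes.

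By chromosome, the share higher in mTEC ran from 13.3% of 511 genes on X to 23.6% of 573 on chromosome 14. On chromosomes 8, 13, 16 and X more genes were higher in cTEC than in mTEC, 141 against 131, 90 against 88, 73 against 72 and 79 against 68. The difference between chromosomes was not tested.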
